A study of Mus musculus with 64 samples.

Results

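Microglia of PBS-treated female mice were compared between 12 and 9 months of age. All libraries that the sample labels give this sex, treatment and age were used, 4 at 12 months and 3 at 9 months, 7 of 64 in the series, and all 5647 genes of the deposited table were tested. The mice were wild type (WT) C57BL/6J, the 12-month group and the 9-month group differed in age alone as far as the labels go, and PBS was the vehicle that other females of the study received together with lipopolysaccharide. Each library came from the brain of 1 mouse, without the cerebellum, digested with papain and sorted by flow cytometry as live CD11b+ CD45low cells, a gate that defines microglia by surface level and not by a microglia-specific gene. The study followed the transcriptome of microglia through adult life in both sexes, and 12 against 9 months is 1 step of its female series. Other PBS-treated females (3, 6, 14, 16 and 24 months) also enter the variance estimate of the test. Beyond that, they and males of 12 months (n = 2) and 9 months (n = 4) are used below only to place the same genes.

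Microglia are the resident macrophages of the brain. At rest they carry receptors such as P2ry12 and Cx3cr1 with which they sense nucleotides and a neuronal chemokine, and their abundant mRNAs include those for lysosomal enzymes and complement C1q. During ageing they are known to lose part of this homeostatic profile and to gain transcripts of antigen presentation, interferon response and lipid handling.

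The values are batch-adjusted FPKM (fragments scaled for transcript length and library size, adjusted by the authors for batches over all libraries and rounded), and the depth of the libraries is unknown. A library's values summed to between 430523 and 466724 at 12 months and between 431192 and 469263 at 9 months, a mean difference of 3303 (two-sided exact permutation test, p = 0.914, with 0.0571 the smallest p that 4 against 3 libraries can give). The median gene value was 25 in every one of the 7 libraries. The Pearson correlation over genes of log2(value + 1) was between 0.879 and 0.944 within 12 months, between 0.869 and 0.917 within 9 months, and between 0.860 and 0.932 between the ages, so that the 3 ranges overlapped.

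Libraries of the same age were unlike each other. In 9-month replicates 2 and 3 together, 128 genes lay beyond the values of all other 24 female PBS libraries, 100 of them below and 28 above. The 38 other pairs of females of the same age had between 6 and 186 such genes, with a median of 36, and 12-month replicates 1 and 3 had 134, of which 111 lay below. Ctnnb1, the gene of beta-catenin, had 50 in 9-month replicate 1 but 12 and 14 in replicates 2 and 3, against 30 to 50 in the other 24 libraries, and was chosen as an example after its values were seen. 9-month replicate 1, in turn, had a low sum over the 17 measured neutrophil marker genes, 519, beside 6057 and 3777 in the other 9-month libraries. For several results that rest on one of these libraries, the value without it is therefore given too.

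The defining markers of the labelled cell type were present. All 10 microglia markers of the list were measured in every library, with Csf1r, the receptor on which microglia depend for survival, between 2004 and 2918 at 12 months and between 2693 and 2814 at 9 months. The summed microglia markers were 15030, 15834, 13968 and 15961 at 12 months, against 18308, 19487 and 17592 at 9 months. None of the 12-month sums reached the lowest 9-month sum. In bulk samples fewer cells of a type and less RNA per cell cannot be told apart, and the same limit holds for each gene below.

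At 12 months 22 genes were higher and 19 lower than at 9 months (limma on log2(value + 1) with variances shared over 26 female PBS libraries of 7 ages, called where the Benjamini-Hochberg adjusted p, taken over the whole table, was under 0.05 and the fold over 1.5). These are 0.39% and 0.336% of the genes tested. The falls ran from Lyve1, by 1.75 on the log2 scale, to Golm1, by 0.66, and the rises were between 0.63 and 3.49, with Prg2 the highest. Of the 41 genes, 19 of 22 that rose and 18 of 19 that fell had no overlap between the 12- and the 9-month libraries, against 3.08% and 4.06% of all genes tested without overlap in those directions. All 41 kept their direction in every alternative fit that held them. These fits and the counts without overlap use the libraries that chose the genes, and are a description only. When the variance was estimated from the 7 libraries alone, no gene passed with limma (374 passed the same fold with unadjusted p-values under 0.05), so the calls depend on the spread shared with the other ages. Without 9-month replicate 1 the fit called 188 genes, without 12-month replicate 1 it called 14, and without 12-month replicate 3 it called 11. Clic4, Ivns1abp, Lpar6, Lyve1, Tsc22d1 and Txndc15 were called whichever of the 7 libraries was left out.

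**Figure D1:**
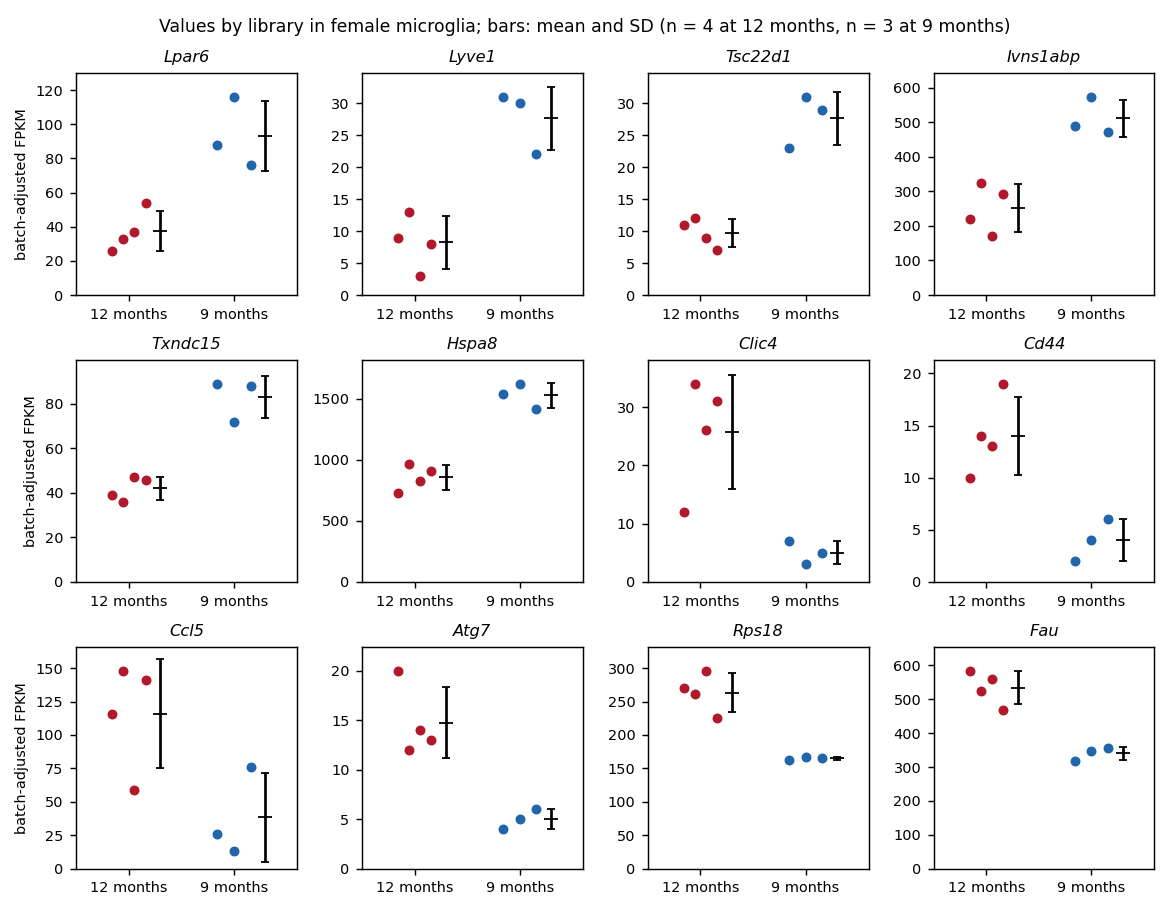
Values of 12 genes in batch-adjusted FPKM (vertical axes from 0) in each library, 12 months at the left (n = 4) and 9 months at the right (n = 3), with the mean and SD beside the points. Lpar6 lies at 26 to 54 at 12 months and 76 to 116 at 9 months, and of the 12 genes Ccl5 is the one whose groups overlap.

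The call with the lowest adjusted p was the fall of a cell surface receptor. Lpar6 (chr14:73237891-73240358, GRCm38.p6), a receptor for lysophosphatidic acid, had 26, 33, 37 and 54 at 12 months, against 88, 116 and 76 at 9 months. Every 12-month library was below every 9-month library, and the group means were 37.5 ± 11.9 and 93.3 ± 20.5 (SD, n = 4 and n = 3). The log2 change was −1.32 ± 0.19 (SE), with an adjusted p of 0.00115 in limma. Lyve1 (chr7:110850607-110862953), a hyaluronan receptor of lymphatic endothelium and of macrophages at the borders of the brain, had 9, 13, 3 and 8 at 12 months, against 31, 30 and 22 at 9 months. Its log2 change was −1.75 ± 0.33 (SE; adjusted p = 0.0129 in limma). Cd44 (chr2:102811141-102901669), another hyaluronan receptor, went the other way, with 10, 14, 13 and 19 at 12 months, against 2, 4 and 6 at 9 months (log2 change 1.64 ± 0.38, SE). For Cd44 too the groups did not overlap, although leaving out single libraries kept its call in 1 of 7 fits.

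A chemokine was among the rises. Ccl5, made by T cells, NK cells and activated macrophages, had 116, 148, 59 and 141 at 12 months, against 26, 13 and 76 at 9 months (log2 change 1.84 ± 0.41, SE). The groups overlapped, since 9-month replicate 3 lay above 12-month replicate 3. The chemokines Ccl3 and Ccl4 did not pass the test, with log2 changes of −0.12 ± 0.39 for Ccl3 and 0.46 ± 0.42 for Ccl4 (SE). Of 22 cytokine and chemokine genes measured, Ccl5 alone was called, where 0.39% of all genes were called higher. Of the same 22, Il1b had 54 to 87 at 12 months and 56 to 101 at 9 months, and Tnf 38 to 91 at 12 months and 53 to 63 at 9 months.

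Ccl5 was also 1 of 4 T and NK cell markers measured, of 14 on that list. These 4 had a median log2 change of 1.26, and of 0.61 without 9-month replicate 1. Their summed value was 152, 212, 107 and 179 at 12 months, against 31.3, 55 and 100 at 9 months, with no overlap. Ccl5 made up most of this sum in every library but 9-month replicate 2. The other 3 markers summed to 36, 64, 48 and 38 at 12 months, against 5.31, 42 and 24 at 9 months, which overlap. They were low: Cd3g had 4 to 10 at 12 months and 0.22 to 10 at 9 months, and Nkg7 20 to 42 at 12 months and 5 to 21 at 9 months. The part of such cells in the Ccl5 values was not tested.

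Border macrophages share the brain preparation with microglia, and Lyve1 is 1 of their 10 measured markers. All 10 markers had log2 changes below 0, with a median of −0.47, against −0.01 for all genes. Of the 10, Lyve1 alone passed the test, where 0.336% of all genes were called lower. The summed markers were 385, 439, 387 and 356 at 12 months, against 538, 525 and 566 at 9 months. The ranges did not overlap. The more abundant markers differed less than Lyve1: Mrc1, the mannose receptor, had 36 to 57 at 12 months and 53 to 75 at 9 months, and Pf4, a chemokine of these cells, 59 to 106 at 12 months and 95 to 127 at 9 months. The endocytic adaptor Dab2, also expressed in border macrophages, fell by 0.76 (SE 0.18), with 39, 49, 36 and 48 at 12 months, against 76, 62 and 83 at 9 months. Whether the falls of Lyve1 and Dab2 go with a smaller share of border macrophages in the gate was not tested.

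Homeostatic microglia genes were mostly lower at 12 months, and 1 passed the test. Of 26 measured, 24 had a log2 change below 0, as had 2883 of all 5647 genes, and the median was −0.24. In 8 of the 26 all 12-month values were below the 9-month values, against 4.06% of all genes. Golm1, a Golgi membrane protein, was the member called, where 0.336% of all genes were called lower. It had 216, 260, 202 and 245 at 12 months, against 420, 344 and 332 at 9 months, and fell by 0.66 (SE 0.15; adjusted p = 0.0361 in limma). Tmem119, a microglial membrane protein, had 1876, 1895, 1630 and 1949 at 12 months, against 2864, 2364 and 2780 at 9 months, with an adjusted p of 0.0906 in limma. P2ry12, the purinergic receptor of resting microglia, had 733, 1082, 1140 and 970 at 12 months, against 1524, 1791 and 1332 at 9 months (adjusted p = 0.212 in limma). The 2 members with a log2 change above 0, Rhob and Gpr84, had their lowest values in 9-month replicates 2 and 3. Among 16 transcription factors of microglial identity the large Maf factor Maf was called, where 0.336% of all genes were called lower. Maf had 15, 32, 16 and 26 at 12 months, against 36, 72 and 59 at 9 months (log2 change −1.30 ± 0.26, SE). Sall1 had 59 to 96 at 12 months and 74 to 142 at 9 months.

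Genes known to be induced in disease-associated and aged microglia were not called at this step. Of 24 disease-associated genes 19 had a log2 change above 0, with a median of 0.21, and without 9-month replicate 1 the median was 0.09. Clec7a, a glucan receptor, had 23, 36, 20 and 29 at 12 months, against 6, 19 and 20 at 9 months (log2 change 0.93 ± 0.38, SE; adjusted p = 0.219 in limma). Without 9-month replicate 1 its log2 change was 0.42. Spp1, osteopontin, had 59 to 132 at 12 months and 25 to 136 at 9 months, and Apoe, an apolipoprotein, 1728 to 5582 at 12 months and 4262 to 5527 at 9 months. The 34 interferon-stimulated genes had a median log2 change of 0.03, and the 15 class I and 8 class II antigen presentation genes medians of −0.00 and 0.10, with no gene called in any of the 3 lists. In the female ages that follow, set against those before (14 and 16 against 3 and 6 months), 15 of the same 34 interferon-stimulated genes were called higher, against 1.66% of all genes. Ifitm3, which restricts virus entry, had 121 to 285 at 12 months and 162 to 214 at 9 months. Of all genes, 3.08% were higher and 4.06% lower at 12 months without overlap between the ages. Of the interferon-stimulated genes 1 was lower without overlap, and of the class I genes 1 was higher and 1 lower. The higher one, H2-K1, had 570, 670, 655 and 568 at 12 months, against 439, 373 and 528 at 9 months (log2 change 0.47 ± 0.16, SE).

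**Figure D2:**
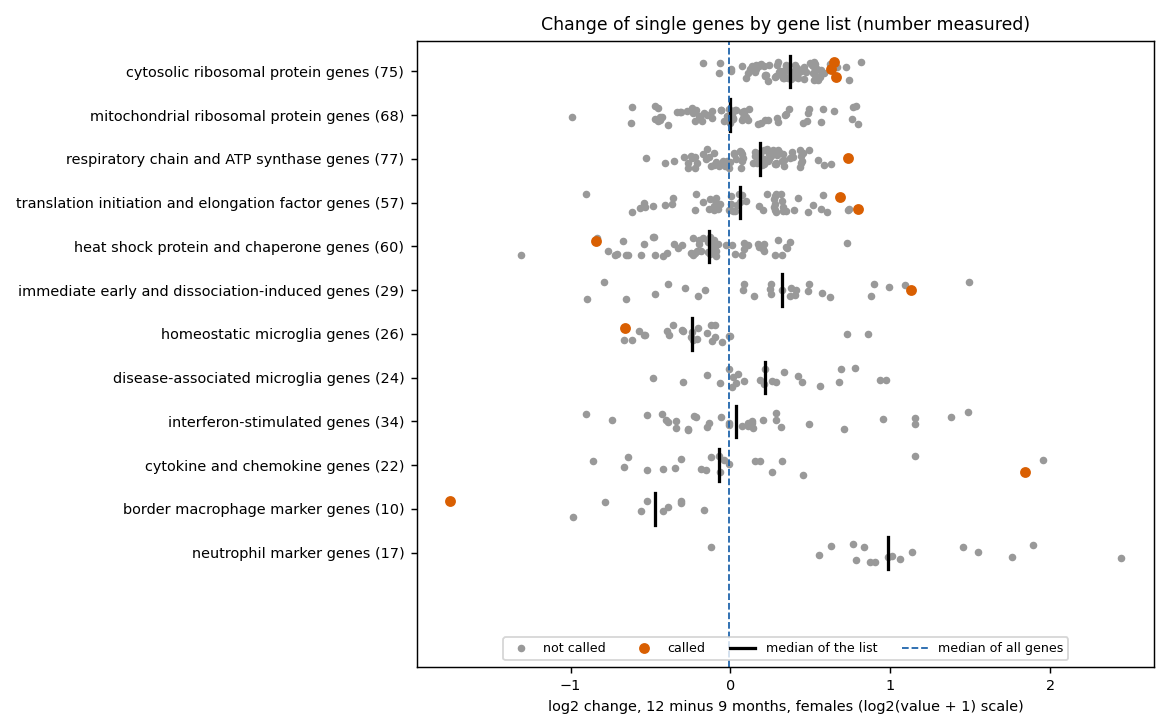
Log2 change at 12 minus 9 months for each measured gene of 12 lists (number measured in brackets), on the log2(value + 1) scale, with called genes in orange, the median of each list as a black bar and the median of all genes as a dashed line. The ribosomal protein genes lie almost wholly right of the line and the border macrophage markers left of it.

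Ribosomal protein genes were mostly higher at 12 months. Of 75 cytosolic ribosomal protein genes 72 had a log2 change above 0, against 48.9% of all genes, with a median of 0.37. The exceptions, Rpl22, Rpl39 and Rps21, had changes from −0.17 to −0.07. In 32 of the 75 all 12-month values were above the 9-month values, against 3.08% of all genes. The summed ribosomal value was 14317, 14182, 14443 and 13343 at 12 months, against 10096, 11677 and 10722 at 9 months. Each 12-month library was above each 9-month library. The median of the list stayed between 0.31 and 0.42 whichever library was left out, and was 0.39 after median-ratio scaling and 0.36 after scaling to the same total. Mitochondrial ribosomal protein genes, 68 in number, had a median of −0.00.

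Of the 75, 3 passed the test, all higher, where 0.39% of all genes were called higher. Among them were Rps18 and Rps13 of the small ribosomal subunit. Rps18 had 270, 261, 296 and 226 at 12 months, against 163, 167 and 166 at 9 months (log2 change 0.66 ± 0.13, SE; adjusted p = 0.018 in limma). Fau, whose product is cleaved to release the small subunit protein eS30, had 584, 525, 560 and 469 at 12 months, against 318, 347 and 355 at 9 months (log2 change 0.65 ± 0.13, SE). The groups did not overlap for Rps18, Rps13 or Fau. Leaving out single libraries kept their calls in 5, 2 and 5 of 7 fits. Ribosomal protein genes have many near-identical processed copies in the genome, and reads could be split among them, so the level of a single member is uncertain.

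Genes whose products act on the ribosome were also called higher. Eef2, the elongation factor that moves the ribosome along the mRNA, had 146, 175, 187 and 170 at 12 months, against 122, 98 and 96 at 9 months. Eif3f, an initiation factor subunit, had 110, 98, 89 and 100 at 12 months, against 67, 42 and 64 at 9 months. Pabpc1, the cytoplasmic poly(A) binding protein, had 80, 104, 107 and 99 at 12 months, against 69, 46 and 49 at 9 months. These 3 were called with log2 changes of 0.68, 0.80 and 0.84 (SE 0.16, 0.18 and 0.16). Pabpc1 was, however, among the genes for which 9-month replicates 2 and 3 lay beyond all other females. Leaving out single libraries kept the call of Eef2 in 1 of 7 fits, and those of Eif3f and Pabpc1 in 4 each. Of 57 initiation and elongation factor genes, 2 were called higher, against 0.39% of all genes. A change above 0 was seen in 35, against 48.9% of all genes, and the median was 0.06.

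The mRNAs of ribosomal proteins and of Eef2, Eif3f and Pabpc1 are known for a pyrimidine run at their 5′ end, the terminal oligopyrimidine tract, through which their translation is controlled together. The start sites of the called genes of this group are shown for that reason. Those 5 that were found in the RefSeq table (GRCm38.p6) are given. The lines give 10 bases before the annotated start and 20 from it on, 5′ to 3′ on the gene's strand, and capitals mark the first run of a C followed by at least 4 bases C or T that starts in those 20 bases.
Fau, chr19:6057937-6057966, plus strand: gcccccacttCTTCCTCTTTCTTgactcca
Rps18, chr17:33955646-33955675, minus strand: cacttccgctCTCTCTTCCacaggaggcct
Eif3f, chr7:108934405-108934434, plus strand: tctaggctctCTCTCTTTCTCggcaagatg
Rps13, chr7:116334171-116334200, minus strand: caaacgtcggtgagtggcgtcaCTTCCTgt
Eef2, chr10:81176621-81176650, plus strand: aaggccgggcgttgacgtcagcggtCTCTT
In Fau, Rps18 and Eif3f the marked run began at the annotated start, which was the first base searched. In all of these, C or T bases also lie directly before that start, so the annotated start need not be where the pyrimidines begin. In Rps13 and Eef2 the run began at positions 13 and 16 from the annotated start. A run of this kind, searched on the gene's strand only, was found at 24.3% of all 32851 start sites of the table, at 29.9% of the 4571 tested genes in it and at 54.5% of 55 ribosomal protein genes. Pabpc1 was not in the table used here.

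Among genes of mitochondrial energy metabolism few were called. Atp5e, a subunit of ATP synthase, had 110, 107, 100 and 89 at 12 months, against 56, 64 and 61 at 9 months (log2 change 0.74 ± 0.17, SE). It was the called member of 77 respiratory chain and ATP synthase genes, where 0.39% of all genes were called higher. Of the 77, 52 had a change above 0 (median 0.18, and 0.05 without 9-month replicate 3). Glud1, glutamate dehydrogenase of the mitochondrial matrix, had 63, 50, 79 and 64 at 12 months, against 36, 40 and 35 at 9 months (log2 change 0.76 ± 0.15, SE). The mitochondrial pyrophosphatase Ppa2 had 11 to 23 at 12 months and 5 to 9 at 9 months. Htra2, a protease of the mitochondrial intermembrane space, was called in the other direction, with 14 to 37 at 12 months and 48 to 61 at 9 months (log2 change −1.20 ± 0.23, SE).

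Chaperone genes were mostly lower at 12 months, and 1 passed the test. Hspa8, the constitutive Hsp70 of the cytosol, had 732, 965, 824 and 905 at 12 months, against 1544, 1623 and 1420 at 9 months. Its means were 856.5 ± 101 and 1529 ± 102 (SD, n = 4 and n = 3), and its log2 change of −0.84 ± 0.21 (SE) lay just inside the threshold (adjusted p = 0.0498 in limma) and was called in 1 of the 7 fits without a library. Fkbp4, a co-chaperone of Hsp90 outside the list, had 42, 50, 45 and 39 at 12 months, against 67, 92 and 82 at 9 months (log2 change −0.85 ± 0.19, SE). Of the 60 chaperone genes 1 was called, where 0.336% of all genes were called lower. A change below 0 was seen in 42 of the 60, as in 2883 of all 5647 genes, and the median was −0.13. In 11 of them all 12-month values were below the 9-month values, against 4.06% of all genes. The summed list was 4272, 5014, 4945 and 5079 at 12 months, against 6371, 6954 and 6087 at 9 months.

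Several chaperone genes of the endoplasmic reticulum had groups without overlap, and none was called. Hspa5 (BiP), the main Hsp70 of that compartment, had 369, 428, 430 and 413 at 12 months, against 587, 617 and 587 at 9 months (adjusted p = 0.156 in limma). Pdia6, a disulfide isomerase, had 134, 146, 128 and 144 at 12 months, against 195, 313 and 193 at 9 months (adjusted p = 0.0544 in limma). Creld2, a target of the unfolded protein response, had 26 to 44 at 12 months and 59 to 71 at 9 months. These 3 genes were picked after their values were seen. Also called lower, and on no list, were Txndc15, a thioredoxin-domain protein, with 39, 36, 47 and 46 at 12 months, against 89, 72 and 88 at 9 months (log2 change −0.97 ± 0.16, SE), and Stx18, a SNARE of the endoplasmic reticulum, with 12 to 17 at 12 months and 25 to 33 at 9 months.

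Immediate early genes, which the digestion of fresh tissue is known to induce, were mixed. Of 29 measured 21 had a change above 0, with a median of 0.32. Ier2 was called, where 0.39% of all genes were called higher. In 3 others, Dusp1, Klf2 and Btg2, all 12-month values were above the 9-month values, against 3.08% of all genes, and in none below. Dusp1 had 2025, 1785, 2322 and 1364 at 12 months, against 1070, 971 and 962 at 9 months (log2 change 0.88 ± 0.23, SE; adjusted p = 0.0647 in limma). Ier2 had 608, 387, 466 and 372 at 12 months, against 414, 142 and 147 at 9 months, so that 9-month replicate 1 lay among the 12-month libraries. Against that library alone its log2 change was 0.12, against 1.13 over all 3. The small GTPase gene Rrad behaved alike, with 120, 43, 45 and 46 at 12 months, against 49, 13 and 5 at 9 months, and a log2 change of 0.22 against replicate 1 alone and 1.85 over all. Gem, of the same RGK family of GTPases as Rrad, did not depend on this, with 20, 16, 12 and 13 at 12 months, against 5, 4 and 5 at 9 months (log2 change 1.50 ± 0.32, SE). Fos had 1363 to 2009 at 12 months and 839 to 1426 at 9 months (adjusted p = 0.105 in limma), and Jun 482 to 793 at 12 months and 572 to 1080 at 9 months. The part of the digestion in these values was not tested.

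Among the called genes the highest fitted change belonged to a low gene. Prg2, eosinophil major basic protein, had 4, 20, 36 and 25 at 12 months, and was listed at 0, 3 and 0 at 9 months, so that its fold depends on the pseudocount. Clic4, an intracellular chloride channel protein, had 12, 34, 26 and 31 at 12 months, against 7, 3 and 5 at 9 months (log2 change 2.12 ± 0.37, SE; adjusted p = 0.0073 in limma). Atg7, the E1-like enzyme of autophagy, had 20, 12, 14 and 13 at 12 months, against 4, 5 and 6 at 9 months (log2 change 1.38 ± 0.27, SE). In each of these 3 genes all 12-month libraries were above all 9-month libraries. The lysosome-related organelle gene Bloc1s6 had 1 to 6 at 12 months and 10 to 20 at 9 months, and Tsc22d1, a TGF-beta-induced leucine zipper gene, had 7 to 12 at 12 months and 23 to 31 at 9 months (log2 changes −1.63 ± 0.32 and −1.43 ± 0.25, SE). Ivns1abp, a Kelch-repeat protein that binds actin, was the most abundant of the firm falls, with 221, 325, 171 and 293 at 12 months, against 488, 573 and 473 at 9 months (log2 change −1.05 ± 0.19, SE).

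Other called genes are given by their change alone. The rises were Gars, glycyl-tRNA synthetase (0.89), Cog2, a Golgi tether subunit (0.88), Gltp, a glycolipid transfer protein (0.82), and 2510009E07Rik (1.19), on the log2 scale. The falls were Tmem251 (−1.24), the exporter Abcc5 (−0.84), Dele1, which relays mitochondrial stress (−0.83), the nuclear protein Akirin1 (−0.69) and the RNA helicase Ddx5 (−0.68). For 4 of the 22 genes that rose (Ier2, Pabpc1, Rrad and 2510009E07Rik), and for none of the 19 that fell, 9-month replicates 2 and 3 lay beyond all other females. Against 9-month replicate 1 alone all 41 genes kept their direction, and 15 of the 22 rises and 18 of the 19 falls were over 1.5-fold. That library and the older ones set against it were among those that chose the 41 genes. These counts are therefore a description only and do not test the direction independently.

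Neutrophil markers varied widely within each age. Of 17 measured none was called, 16 had a log2 change above 0, and the median was 0.99. The summed markers were 4719, 2111, 4818 and 5684 at 12 months, against 519, 6057 and 3777 at 9 months. S100a8, an abundant granulocyte protein, had 2123, 1003, 2351 and 2423 at 12 months, against 191, 2636 and 1653 at 9 months (adjusted p = 0.486 in limma). The low library was 9-month replicate 1, and without it the median of the list was −0.21. With replicate 1 as the only 9-month library S100a8 and S100a9 were called, with log2 changes of 3.28 and 3.53. The 12 markers of monocyte-derived cells, which share members with the neutrophil list, likewise had a median of 0.57, and −0.17 without that library. Erythrocyte markers (3 measured) summed to 0 to 29 at 12 months and 0 to 269 at 9 months, and choroid plexus markers (2 measured) to 3.15 to 140 at 12 months and 1 to 2.93 at 9 months.

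**Figure D3:**
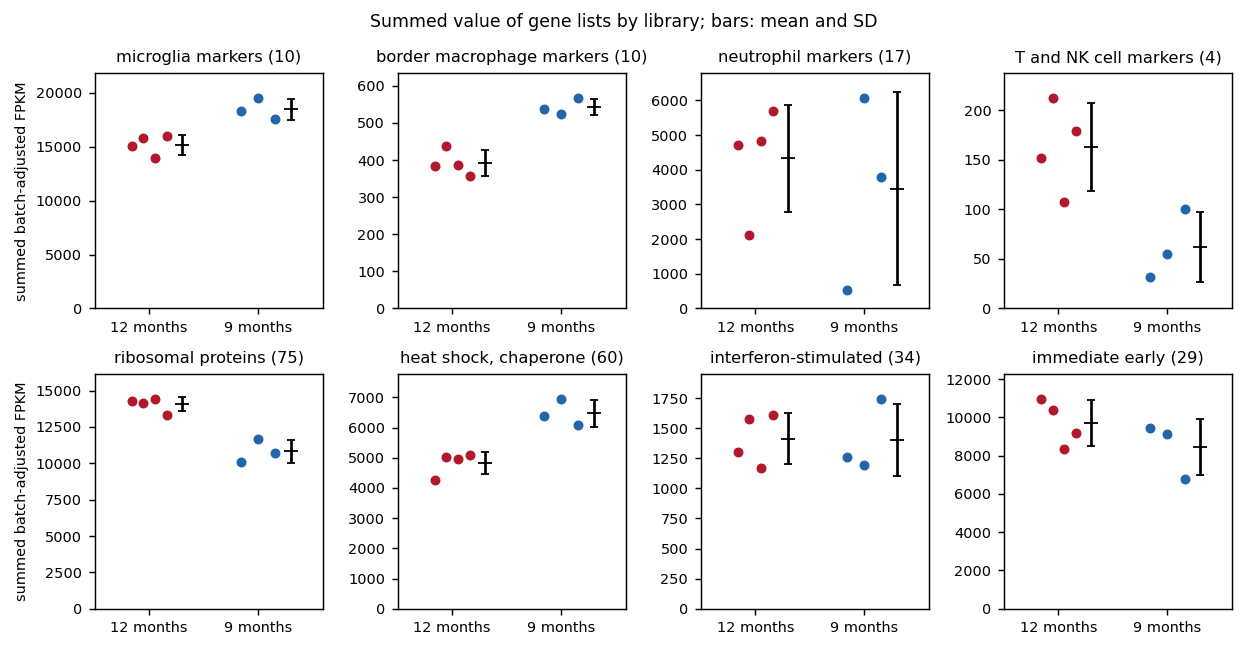
Summed value of 8 gene lists in batch-adjusted FPKM (vertical axes from 0; number of measured genes in brackets), by library, with mean and SD, 12 months at the left (n = 4) and 9 months at the right (n = 3). The sums of microglia and border macrophage markers, T and NK cell markers, ribosomal proteins and chaperones do not overlap between the ages, and the neutrophil sum of 519 in 9-month replicate 1 stands far below the others.

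Over the 7 female ages the extreme group means of the called genes often lay at 9 or 12 months, the ages by which they were chosen. Of the 19 genes that fell, 14 had their lowest group mean of all 7 ages at 12 months and 11 their highest at 9 months. Of the 22 that rose, 19 had their lowest mean at 9 months and 5 their highest at 12 months. These counts use the groups that chose the genes and are a description only. Lpar6 averaged 139 ± 5.35, 92 ± 2.83, 93.3 ± 20.5, 37.5 ± 11.9, 68.6 ± 8.38, 59 ± 9.72 and 97 ± 12.5 in females from 3 to 24 months, in the order 3 (n = 4), 6 (n = 2), 9 (n = 3), 12 (n = 4), 14 (n = 5), 16 (n = 5) and 24 months (n = 3; SD). Its level at 12 months was thus below that at any other age, and at 24 months it was near that of 9 months. Rps18 averaged 213.5, 190, 165, 263, 283, 303 and 364 at the same ages, lowest at 9 months and highest at 24 months. Hspa8 averaged 1378, 1566, 1529, 856.5, 1268, 1313 and 1085, with its lowest mean at 12 months.

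**Figure D4:**
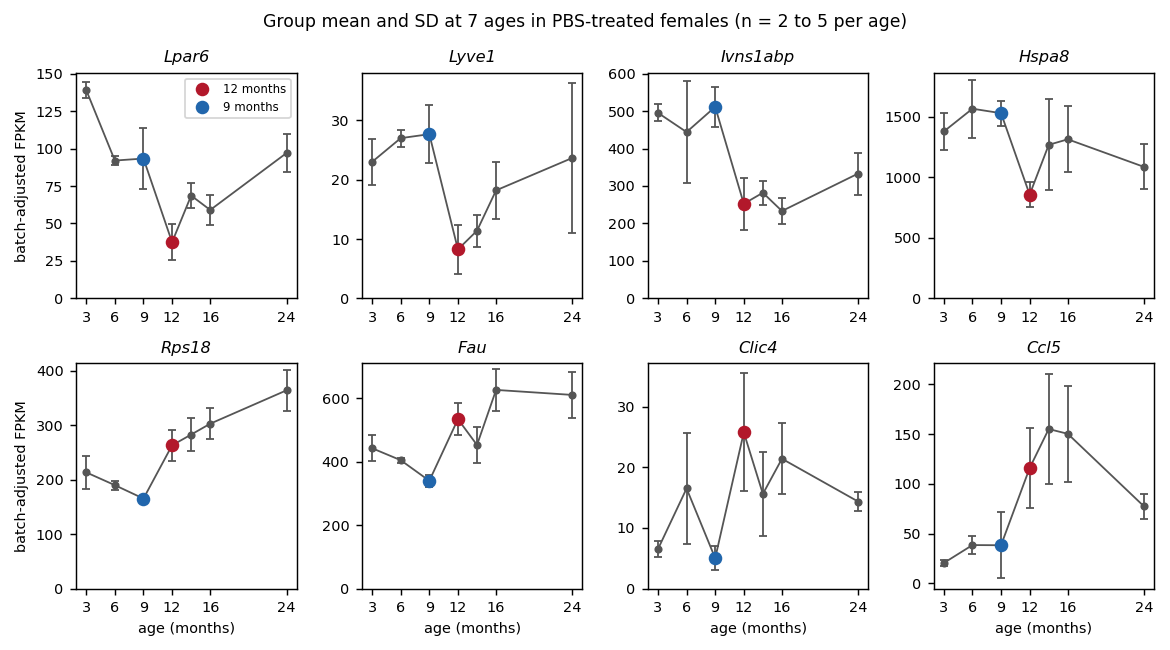
Group mean and SD (batch-adjusted FPKM) of 8 genes at 7 ages (horizontal axis, months) in PBS-treated females (n = 2 to 5), with 12 months in red and 9 months in blue. Lpar6, Lyve1 and Hspa8 have their lowest mean at 12 months, and Rps18, Fau and Clic4 their lowest at 9 months.

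Libraries outside the comparison gave each gene a second measure. It came from the same fit, so both comparisons shared each gene's variance estimate, and their calls are not independent. Between 14 and 16 months and 3 and 6 months, 94 genes were called higher and 102 lower (1.66% and 1.81% of the genes tested). Of the 19 genes that fell at 12 months 6 were called lower there, namely Lpar6, Lyve1, Ivns1abp, Abcc5, Htra2 and Golm1. On the log2 scale their changes in that comparison were between −0.86 (Ivns1abp) and −0.62 (Htra2 and Golm1). None of the 19 was called higher, and 18 had a change below 0, as did 65.0% of all genes. Of the 22 genes that rose, Ccl5 (2.33) and Cd44 (1.11) were called higher and none lower, and 17 had a change above 0, as did 35.0% of all genes. Clic4, Tsc22d1 and Txndc15, called at 12 months whichever library was left out, were not called there, with log2 changes of 0.73, 0.11 and −0.44. Ribosomal protein genes had a median log2 change of 0.32 in the later comparison, chaperones one of −0.14 and border macrophage markers one of −0.54, with 1, 1 and 4 genes called.

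In males of the same ages 99 genes were called higher and 18 lower at 12 against 9 months (1.75% and 0.319%), from 2 mice of 12 months. Median-ratio scaling gave a median over all genes of −0.01 there in place of −0.11, and 119 higher and 7 lower calls. Of the 41 genes, Cd44 was called in males too, with 22.5 ± 0.707 at 12 months and 6.25 ± 0.957 at 9 months (SD, n = 2 and n = 4) and a log2 change of 1.71. Of the 22 rises 17 had a change above 0 in males, with a median of 0.24, and of the 19 falls 15 had one below 0, with a median of −0.33, as did 64.9% of all genes. Of the 17 neutrophil markers 14 were called higher in males, where the median was 2.62. The interaction of sex with the change called no gene in limma, 0% of 5647, while 553 passed the same fold with unadjusted p-values under 0.05, and the lowest adjusted p was 0.0817. Without 9-month female replicate 1 it called 88 genes, so whether the step differs between the sexes depends on that library.

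**Figure D5:**
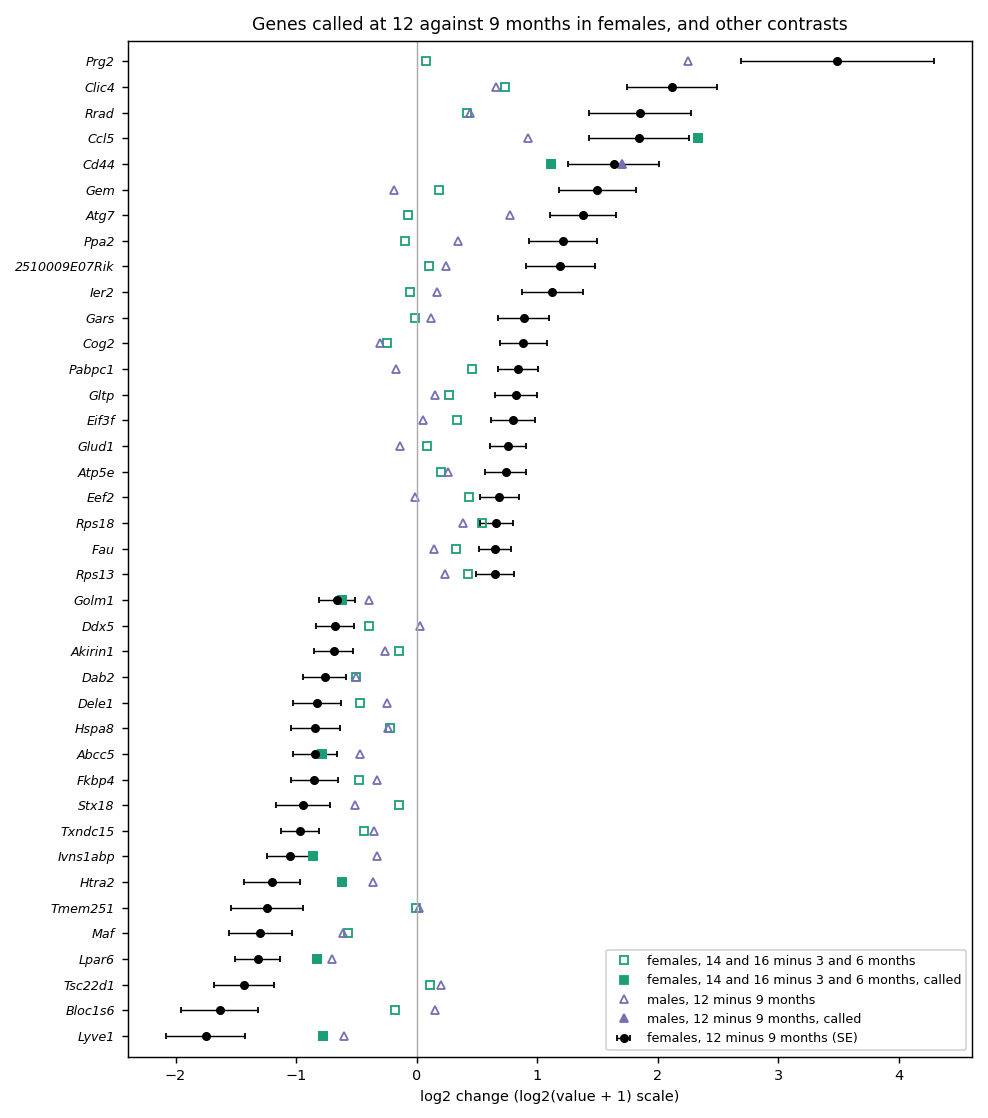
Log2 change on the log2(value + 1) scale of 39 of the 41 genes called at 12 against 9 months in females (black, with SE), beside the change at 14 and 16 against 3 and 6 months in females (green squares) and at 12 against 9 months in males (purple triangles), filled where called. Lpar6, Lyve1, Ivns1abp, Abcc5, Htra2 and Golm1 are called lower in the later female comparison, Ccl5 and Cd44 higher, and Cd44 is called in males.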

How the data were processed

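Microglia of single mice were profiled by RNA sequencing of oligo-dT primed, template-switched and amplified cDNA. The authors filtered reads with SOAPnuke, aligned them with HISAT2 2.0.4 to mm10 and with Bowtie2 2.2.5 to coding genes, and computed FPKM with RSEM 1.2.12 (versions from the submitters' processing notes). The authors then adjusted all libraries together with ComBat_seq, for batches that are not given in the sources used here, and left out genes averaging under 10. The deposited values are therefore a score, batch-adjusted FPKM rounded mostly to whole numbers, and not counts. The adjustment can pull libraries of different batches together, and it leaves the depth unknown, so no counting interval was computed.

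Values were taken as log2(value + 1) and fitted with limma 3.58.1 in R 4.3.3 (moderated variances with a trend on the mean) over the 26 female PBS libraries for the female comparisons, with p-values adjusted by Benjamini and Hochberg over 5647 genes. The fold changes are on that scale, which understates changes of low genes. Males were fitted apart over their 27 PBS libraries, and the interaction with sex over all 53. The fit was also run on simulated data with independent noise in each library. That run cannot show how the fit handles deviations that libraries share. Library sums were compared by exact permutation in Python 3.11.15 with SciPy 1.17.1. Positions and start sites are RefSeq's on GRCm38.p6, the assembly of mm10, matched by symbol for all 72 named genes.

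Named genes were up to 20 of the largest rises and falls among the called genes, up to 4 called members of each list and a set of microglial reference genes. Members and lists were chosen with earlier results of these data known. Alternatives were other pseudocounts (0.5 and 5), a mean of at least 50, 2 other scalings, other variance models and thresholds, the 2 groups alone, a replicate block and each library left out. The comparison with 9-month replicate 1 alone was added after seeing the data. The study's edgeR test needs counts and was not used. A few genes are not reported here.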

Additional observations from a re-analysis of the deposited data

Results flagged for a closer look

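In 138 sets of values from 1 age, 12 had a library far from the rest by Dixon's criterion, where chance flags about 1 in 20 groups. At 12 months these were Rrad, with 120 in replicate 1, Tmem251, with 3 in replicate 1, Axl, with 26 in replicate 3, Il1b, with 54 in replicate 3, and S100a8, with 1003 in replicate 2. In the summed lists at 12 months they were the chaperone genes, with 4272 in replicate 1, and the B and plasma cell markers, with 90 in replicate 3. At other female ages they were Clic4, with 12 in replicate 2 at 16 months, Lpar6, with 76 in replicate 1 at 16 months, Hspa8, with 866 in replicate 5 at 16 months, Rps18, with 336 in replicate 3 at 14 months, and Fau, with 381 in replicate 1 at 3 months.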

How the results depend on the processing

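The direction of all 41 called genes was the same in every fit that held them, and no named gene reversed. These fits reuse libraries that chose the called genes, so they do not test the direction independently. The count of 41 was 20 with no variance trend, 530 at an unadjusted p, 0 with the 2 groups alone, and 11 to 188 with 1 library left out. Against 9-month replicate 1 alone, an alternative chosen after seeing the data, it was also 41, of which 7 were shared with the main count. The other settings gave 36 to 50. Libraries of the same replicate number did not deviate together (r of 0.101, −0.123 and −0.008), none correlated best with its own number, and the replicate block gave 44 genes, 35 of them shared. The sample titles number the replicates within each age. In the sample descriptions the 9- and 12-month libraries have no number in common. These checks therefore cannot show whether libraries shared a batch. At 14 and 16 against 3 and 6 months the count of 196 was 77 at a mean of at least 50, 320 with no fold, 340 at an unadjusted p, and 65 (without 6-month replicate 1) to 217 with 1 library left out. Its split of 94 higher and 102 lower was 127 and 56 after median-ratio scaling and 114 and 64 after scaling to the same total. In males the count of 117 was 53 at a mean of at least 50, 405 at an unadjusted p, and 62 (without 12-month replicate 1) to 107 with 1 library left out. The interaction called 553 at an unadjusted p and 0 to 88 with 1 library left out. Over the 1200 values of named genes under alternatives, 249 lost a call, 3 gained one and 948 kept their side. The causes were not tested. With depth unknown, a difference that failed the test at 4 against 3 libraries is not shown to be absent.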
